A study of Mus musculus with 12 samples.

Results

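The prospective retina and the prospective lens of normal mouse embryos were compared here: 3 arrays of wild-type distal optic vesicle were set against 3 arrays of wild-type surface ectoderm, 6 of the 12 arrays of the study, across every gene that the array's annotation names and that passed a detection filter. The mice were of a mixed C57BL6 and FVB background, and all embryos were at E10.5, mid-gestation. The other 6 arrays held the same tissues of embryos labelled Bmp4 KO, in which the study deleted Bmp4 in the optic vesicle; the promoter that drove the deletion and the alleles of the embryos labelled wild type are not given in the sources used here. Both tissues were cut by laser microdissection from eosin-stained frozen sections of 10 µm, and 15 ng of total RNA was amplified and hybridised to Illumina mouse bead arrays. The series' text speaks of 3 embryos per genotype and also of pooled RNA, so the spread behind the p-values below may be partly technical. That spread was estimated over all 12 arrays, 3 samples per tissue and genotype, so the mutant arrays entered it too. The vesicle and ectoderm samples may also come from the same embryos, which the labels do not settle.

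The optic vesicle is an outgrowth of the forebrain whose distal wall contacts the overlying surface ectoderm and then folds inwards to become the neural retina. The ectoderm at the contact thickens into the lens placode and invaginates as the lens vesicle. The vesicle is a neuroepithelium, governed by eye field transcription factors such as Rax, Lhx2 and Pax6, whereas the ectoderm is a cadherin-1 epithelium in which Pax6 and Foxe3 precede the crystallins, the structural proteins of the lens.

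The sequences shown first belong to a cluster of lens genes whose members were brighter in the same tissue. Crygb, Crygc, Crygd and Cryge, which encode gamma crystallins, were all called higher in the ectoderm (values below), and their promoters are shown from 100 bases upstream up to the transcription start (RefSeq, GRCm38.p6). Capitals mark a variant of the core promoter box, with the letters TATATA, and a second motif, GCAGCA, which is the reverse complement of TGCTGC and resembles a MAF recognition site; both were chosen after these promoters had been read.
Crygb, chr1:65082291-65082390, minus strand: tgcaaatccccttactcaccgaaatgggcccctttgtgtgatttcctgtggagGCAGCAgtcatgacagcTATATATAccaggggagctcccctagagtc
Crygc, chr1:65073533-65073632, minus strand: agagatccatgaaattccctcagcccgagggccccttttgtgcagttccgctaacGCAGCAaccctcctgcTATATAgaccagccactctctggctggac
Crygd, chr1:65063441-65063540, minus strand: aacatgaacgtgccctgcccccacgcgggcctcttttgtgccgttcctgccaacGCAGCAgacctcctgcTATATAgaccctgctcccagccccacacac
Cryge, chr1:65051164-65051263, minus strand: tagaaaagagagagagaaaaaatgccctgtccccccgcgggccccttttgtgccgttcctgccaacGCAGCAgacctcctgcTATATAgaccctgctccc
In each promoter GCAGCA stood upstream of TATATA on the gene's strand, with 16 or 17 bases from the first base of one to the first base of the other. That arrangement was present in 4 of the 9615 promoters of tested genes, counting the first listed start of each gene, and those were the promoters shown. The spacing was also read from these 4 promoters, so their own match was fixed in advance. The stretches of Crygd and Cryge are nearly the same around both motifs, so the 4 are not separate cases. Taken singly, TATATA was present in 2.43% and TGCTGC on either strand in 23.5% of the 9615 promoters. A match is a description of letters only.

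Across the wild-type arrays 11924 genes were tested with limma, of which 999 (8.38%) differed between the tissues at a Benjamini-Hochberg adjusted p below 0.05, the threshold for every call below. Of these, 483 (4.05%) were higher in the vesicle and 516 (4.33%) in the ectoderm, and 2502 genes had an unadjusted p below 0.05. A difference of at least 2-fold was seen for 319 of the vesicle genes and 400 of the ectoderm genes, and one of at least 8-fold for 32 and 69. The 3 arrays of one tissue lay wholly on one side of the other 3 for 994 of the 999 called genes, against 27.7% of all genes tested. The 999 were called on these same values, which makes such a separation nearly certain, so it is no separate support. Many of the called genes were present in both tissues and differed in level: 324 of the vesicle genes and 314 of the ectoderm genes were detected on all 6 arrays. By contrast, the probe used for a gene was detected on no ectoderm array for 61 of the vesicle genes and on no vesicle array for 104 of the ectoderm genes. Over all probes of a gene these numbers were 51 and 92. Where the probe used was not detected in the dimmer tissue, the fold is given as at least the brighter group's mean over the lowest detected signal, or the probe's own signal if higher, of the dimmer group. For 27 of the 120 called genes named here the probe was detected on 1 or 2 of the 3 arrays of the dimmer tissue, and with its other arrays raised to the lowest detected signal their folds became 0.817 to 0.994 of those given. The sizes also depend on the background correction: without one the folds of the 120 genes had a median of 0.51 of those given, and with a larger offset (50 in place of 16) 0.64. Vax1, Cryba2, Trp63, Meis2, Pmel, Id2, Rrm2, Pax6 and Agrn, 9 of the 120, lost their call under at least 1 other background correction, filter, probe summary or model.

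**Figure D1:**
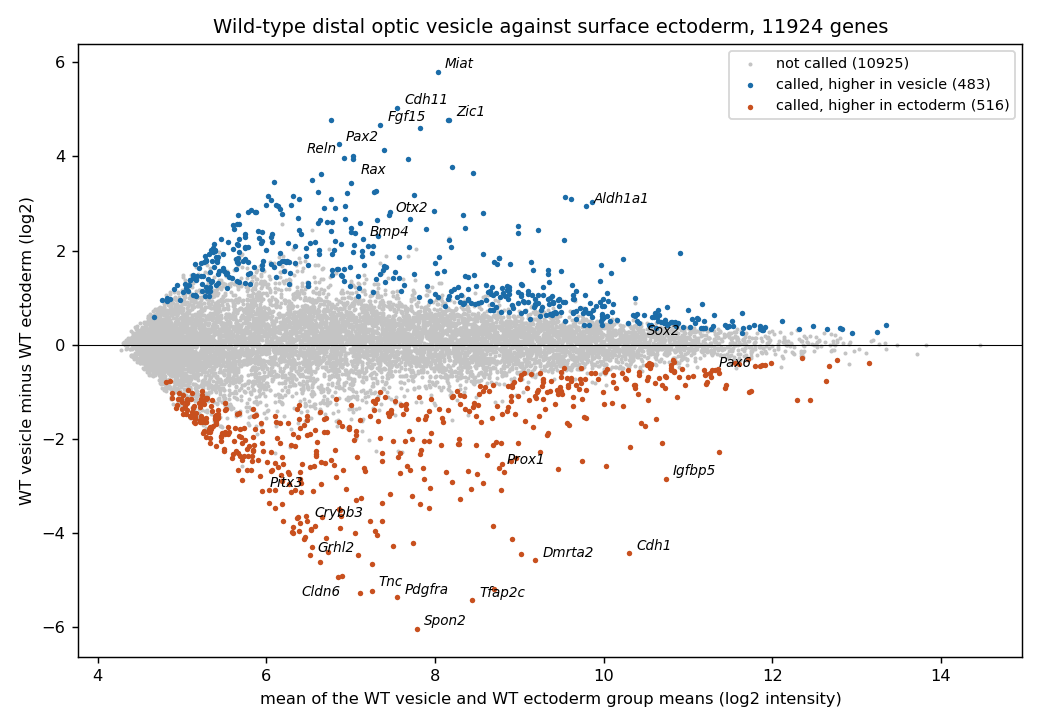
Difference between wild-type vesicle and wild-type ectoderm (y axis, log2) against the mean of both groups (x axis, log2 intensity) for each of 11924 genes, 1 point per gene. Blue points mark the 483 genes called higher in the vesicle and orange points the 516 called higher in the ectoderm; the labelled extremes are Miat at 5.79 and Spon2 at -6.03.

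The arrays were of like quality, with 45.2% to 46.7% of probes detected and a median of 42 beads per probe. Correlations between arrays (Pearson, log2 values over the genes tested, 1 probe each) were 0.961 to 0.963 among the vesicle arrays, 0.933 to 0.945 among the ectoderm arrays and 0.89 to 0.912 between tissues. In a principal component analysis the first component, with 49.3% of the variance, separated the tissues; on the second, with 17.5%, ectoderm array 1 stood apart at -45.4, against 18.9 and 32.7 for ectoderm arrays 2 and 3. Without ectoderm array 1 there were 786 calls, 328 higher in the vesicle and 458 in the ectoderm. Without vesicle array 2 there were 612, 255 and 357, and without vesicle array 3 there were 675, of which 299 were higher in the vesicle. The array slides partly followed the tissues: slide 1 held vesicle array 1 and ectoderm arrays 1 and 2, and slide 2 the remaining 3. With the 6 wild-type arrays fitted alone 960 genes were called. With slide as a block 892 genes were called, 847 of them among the 999. Within slide 1 alone 76 genes were called and within slide 2 alone 415. Each of the 999 genes had the same sign within both slides, which the choice of the genes on the same arrays favours.

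The tissue labels were checked against defining genes. Of 7 markers of prospective retina, 5 were tested, and Rax, Lhx2, Nr2e1 and Fgf15 were higher in the vesicle while Six3 did not pass. All 5 lens placode markers tested (Foxe3, Prox1, Pitx3, Maf and Mab21l1) and 6 of 7 markers of surface epithelium were higher in the ectoderm. Markers of other cells gave 1 of 7 for mesenchyme and neural crest (Foxc1, higher in the ectoderm), 0 of 5 for endothelium, 0 of 2 for macrophages and 0 of 1 for neurons. Of 4 pigment epithelium markers tested 2, Dct and Pmel, were higher in the vesicle (values below), while Mitf and Tyrp1 did not pass. Of 5 erythroid markers tested 4 were higher in the ectoderm. Hbb-y, Hbb-bh1, Hba-x and Hba-a1, which encode embryonic and adult globin chains, were 4.53, 4.84, 6.15 and 6.42 times higher there (limma adjusted p = 4.996e-09, 2.66e-09, 7.45e-07 and 3.63e-07). The summed intensity of the 6 erythroid genes tested was 2042 to 2150 on the vesicle arrays and 9858 to 10550 on the ectoderm arrays, while Klf1, an erythroid transcription factor, did not pass. The summed intensity of 9 mesenchymal genes was 318 to 424 in the vesicle and 770 to 880 in the ectoderm, and without Foxc1 it was 298 to 404 and 406 to 534. That of 9 endothelial genes was 309 to 335 and 222 to 318. The part of blood or mesenchyme in the differences below was not tested. In such tissue samples fewer cells of a type and less RNA per cell cannot be told apart.

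Among regulators of the eye field and neural retina, 8 of 18 tested members were higher in the vesicle and 2 in the ectoderm, with a median log2 difference of 0.45 against 0.05 over all genes tested. Rax, a homeobox gene needed to form the vesicle, lay between 8.98 and 9.01 (log2 intensity) on the vesicle arrays and at 5.42, 4.74 and 5.01 on the ectoderm arrays. The groups were far apart, and the difference was 15.4-fold (log2 3.94, s.e. 0.44, limma adjusted p = 3.35e-05). Lhx2, a LIM homeobox regulator of retinal identity, was 12.4 times higher in the vesicle, and Nr2e1, the orphan nuclear receptor that keeps neural progenitors dividing, 15.4 times (limma adjusted p = 4.12e-05 and 5.04e-05). Ectoderm array 2 carried more Nr2e1 signal (6.75) than ectoderm array 3 (4.60), still below every vesicle array (9.45 to 9.84). Zic1, a zinc-finger gene of the dorsal neural tube and optic stalk, measured 10.57, 10.59 and 10.51 in the vesicle and 5.37, 5.46 and 6.51 in the ectoderm, 27.4-fold. Fgf15, a growth factor made by the early retina, measured 9.74, 9.66 and 9.64 against 4.87, 4.98 and 5.21, 25.4-fold (limma adjusted p = 3.63e-07 for Zic1 and 4.27e-07 for Fgf15). Fzd5, a Wnt receptor of the eye field, was 5.77 times higher and Zic2 at least 2.61 times higher in the vesicle.

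Other eye field genes were bright in both tissues. Pax6, the homeobox gene required in both retina and lens, measured 11.07, 10.99 and 10.98 in the vesicle and 11.49, 11.74 and 11.43 in the ectoderm. It was thus 1.45 times higher in the ectoderm, with groups that did not overlap (limma adjusted p = 0.00374). Meis2, a TALE homeobox gene, was 1.88 times higher in the ectoderm (limma adjusted p = 8.79e-05). Six3 lay at 7.90 to 8.33 in the vesicle and 8.64 to 9.17 in the ectoderm, and its difference did not pass (limma adjusted p = 0.272). Sox2, named after its values had been seen, was 10.41 to 10.64 in the vesicle and 10.12 to 10.48 in the ectoderm, a log2 difference of 0.13 (limma adjusted p = 0.726). Ccnd1, the cyclin of retinal progenitors, differed by a log2 value of 0.01 (limma adjusted p = 0.965).

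**Figure D2:**
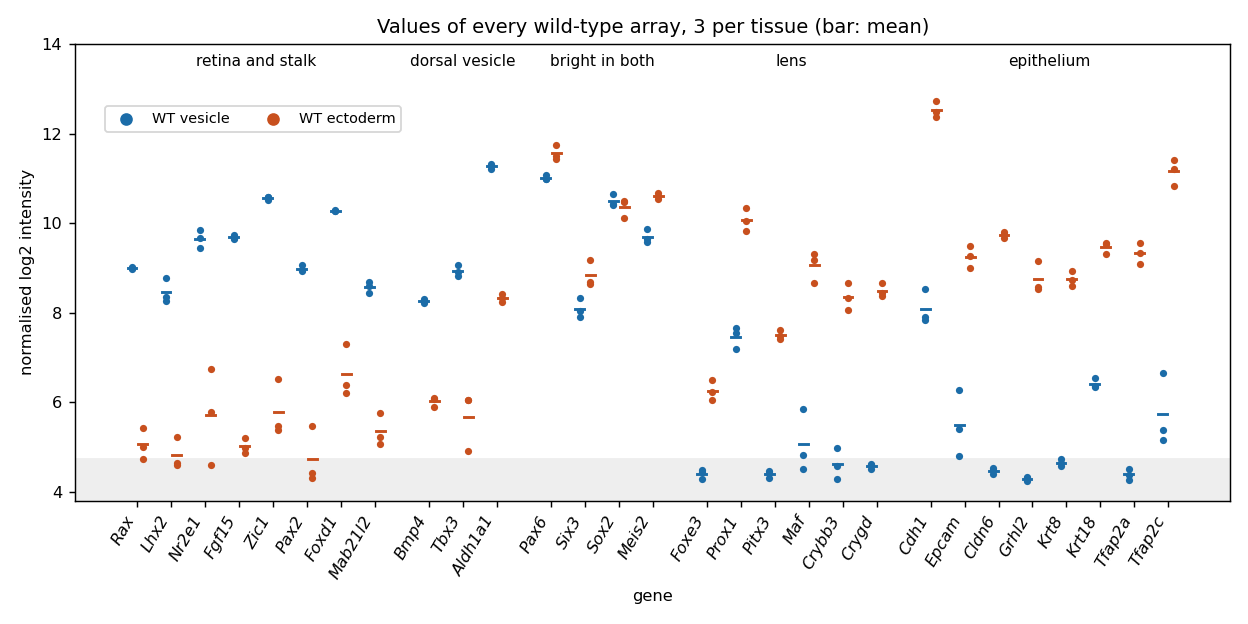
Normalised log2 intensity (y axis) of named genes (x axis) on each wild-type array, blue for vesicle and orange for ectoderm, with a bar at each group's mean; the shaded band lies below the lowest detected signal, 4.7. Rax, Lhx2 and Pax2 are far brighter in the vesicle, Pax6 and Sox2 bright in both, and Cldn6, Grhl2 and Tfap2a are within the band in the vesicle.

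Genes that pattern the vesicle along its dorsoventral axis were split between the tissues. Of 9 dorsal genes, 4 were higher in the vesicle and 2 in the ectoderm, and of 8 ventral and stalk genes 3 and 1, with median log2 differences of 0.75 and 1.40. Bmp4, the ligand deleted in the study's mutants and a signal for lens induction, measured 8.26, 8.30 and 8.22 in the vesicle and 5.90, 6.09 and 6.08 in the ectoderm. It was 4.72 times higher in the vesicle (log2 2.24, s.e. 0.40, limma adjusted p = 0.00212). Tbx3, a T-box repressor of the dorsal retina, was 9.64 times higher, and Tbx2 did not pass at a log2 difference of 0.26 (limma adjusted p = 5.92e-05 and 0.748). Pax2, the paired box gene of the optic stalk and ventral retina, measured 9.06, 8.95 and 8.94 against 4.42, 5.47 and 4.30 and was 19.1 times higher in the vesicle, or 15.9 times with the ectoderm arrays raised to the lowest detected signal, since it was detected on 1 of them. Foxd1, a forkhead gene of the ventrotemporal retina, was 12.5 times higher, with 10.30, 10.26 and 10.26 in the vesicle against 6.39, 6.21 and 7.29 (limma adjusted p = 9.36e-05 for Pax2 and 3.40e-07 for Foxd1). Vax1, a ventral homeobox gene, was detected on no ectoderm array and was at least 2.99 times higher in the vesicle (limma adjusted p = 0.025). Its call was lost without vesicle array 1 (adjusted p = 0.097), vesicle array 3 (0.0914) or ectoderm array 1, 2 or 3 (0.0692, 0.0669 and 0.0584), each by limma.

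Several pairs of related genes were higher in opposite tissues. Of the retinaldehyde dehydrogenases, which make retinoic acid, Aldh1a1 measured 11.27, 11.31 and 11.22 in the vesicle and 8.32, 8.24 and 8.41 in the ectoderm, whereas Aldh1a3 measured 9.74, 9.69 and 9.53 in the vesicle and 11.67, 11.78 and 11.75 in the ectoderm. Neither pair of groups overlapped: Aldh1a1 was 7.69 times higher in the vesicle and Aldh1a3 4.23 times higher in the ectoderm (limma adjusted p = 9.42e-07 and 1.65e-08). Mab21l2 was 9.35 times higher in the vesicle and its paralogue Mab21l1, also needed for eye development, 1.81 times higher in the ectoderm (limma adjusted p = 2.17e-05 and 0.00361). Among cadherins, Cdh11 measured 10.38, 9.97 and 9.85 in the vesicle and 4.61, 5.35 and 5.13 in the ectoderm, 32.8-fold, and Pcdh17 was 9.43 times higher. Cdh1, the epithelial cadherin, ran the other way with 7.84, 7.90 and 8.54 against 12.72, 12.47 and 12.36, 21.5-fold (limma adjusted p = 7.51e-08 for Cdh11 and 8.58e-09 for Cdh1). Cdh2, the neural cadherin, did not pass (log2 -0.55, limma adjusted p = 0.405). Of the ephrin-B ligands, Efnb3 was 3.06 times higher in the vesicle and Efnb1 5.56 times higher in the ectoderm. Probes of close relatives such as these can share transcripts, which was not tested.

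Some regulators and pigment genes of the retinal pigment epithelium were brighter in the vesicle. Of 12 tested members of the pigment epithelium list, 4 were higher in the vesicle and 2 in the ectoderm, with a median log2 difference of 0.20. Their summed intensity was lower in the vesicle, 6975 to 7912 against 10270 to 10810 in the ectoderm. The sum adds linear values, so its brightest members weigh most. Dct and Pmel, with mean log2 intensities of 7.49 and 6.25 in the vesicle, made up a small part of it. The sum is therefore not a measure of pigment cells alone. Otx2, a homeobox regulator of pigment epithelium, was 6.73 times higher in the vesicle, with 8.66, 8.85 and 8.97 against 5.96, 6.14 and 6.12 (limma adjusted p = 4.93e-07). Dct, Pmel and Trpm1, a melanin enzyme, a melanosome matrix protein and a channel of pigment cells, were detected on all 3 vesicle arrays, and the probes used for them on no ectoderm array. By those probes they were at least 6.65, 2.80 and 8.34 times higher in the vesicle (limma adjusted p = 0.000249, 0.00312 and 1.11e-05). Another probe was detected on 1 ectoderm array for Pmel and on all 3 for Trpm1. Mitf, the pigment cell regulator, spread from 8.16 to 9.79 in the ectoderm across the vesicle range of 8.56 to 8.79, and did not pass. Gja1, a gap junction protein, was 1.71 times higher in the ectoderm (limma adjusted p = 9.42e-07).

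The largest vesicle differences lay partly outside these lists. Miat, a long noncoding RNA, measured 11.04, 10.88 and 10.87 in the vesicle and 4.36, 6.65 and 4.39 in the ectoderm, 55.5-fold, and ectoderm array 2 was the only ectoderm array on which it was detected. Without that array the log2 difference of Miat was 6.55 in place of 5.79. Dipk1c was detected on no ectoderm array and was at least 21.0 times higher in the vesicle. Ildr2, Slc38a8 (an amino acid transporter), Dapl1, Reln (the secreted protein that orders neuronal layers), Wfdc1 and Adam23 were between 13.6 and 27.1 times higher. Limma adjusted p-values of these 8 genes ran from 5.01e-09 for Slc38a8 to 0.000183 for Miat.

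Neural progenitor genes gave 4 of 16 higher in the vesicle and none in the ectoderm, with a median log2 difference of 0.15. Slc1a3, the glutamate transporter of radial glia, was 5.59 times higher in the vesicle and Ptn, a secreted growth factor, 1.85 times (limma adjusted p = 0.00343 and 0.00323). The log2 difference of Slc1a3 was 2.48 in all, 1.83 without ectoderm array 3, 1.72 within slide 1 and 3.85 within slide 2. Nes did not pass, at a log2 difference of 0.17 (limma adjusted p = 0.876). Of 18 neurogenic and early neuronal genes 9 were below the detection filter, and the 6 tested were split, 2 higher in each tissue. Insm1, a neuroendocrine zinc-finger gene, was at least 1.94 times higher in the vesicle, and Isl1, a LIM homeobox gene, at least 2.66 times higher in the ectoderm (limma adjusted p = 0.0014 and 0.00188). Of 29 cell cycle genes 4 were higher in the vesicle, among them Rrm2 at 1.67 times, and 1 in the ectoderm, Ccnd2 at 2.12 times (limma adjusted p = 0.000509 and 0.00502). Cdkn1c, a CDK inhibitor, was 1.61 times higher in the ectoderm (limma adjusted p = 0.00146).

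**Figure D3:**
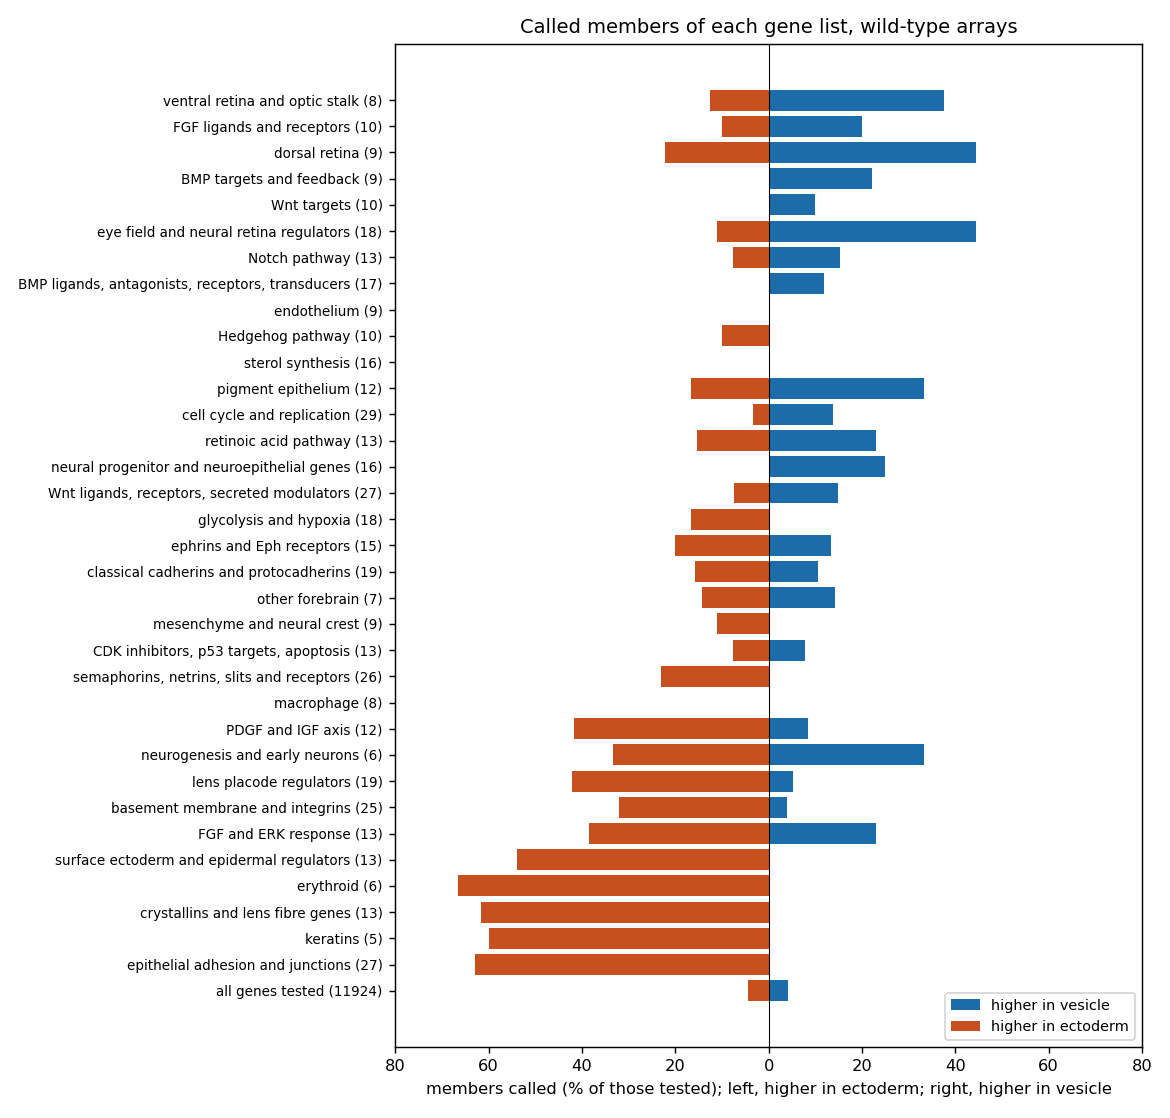
Share of the tested members of each gene list (in brackets, the number tested) called higher in the vesicle (blue, right) or in the ectoderm (orange, left), in percent, ordered by the list's median log2 difference, with all genes tested at the bottom. Epithelial adhesion genes, keratins, crystallins and erythroid genes have bars to the left only; over all genes the bars reach 4.05% and 4.33%.

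Regulators of the lens placode were mostly brighter in the ectoderm where they were called. Of 19 tested regulators of the lens placode, 8 were higher in the ectoderm and 1, Mab21l2, in the vesicle, with a median log2 difference of -0.54. Pitx3, a homeobox gene needed for lens epithelium, measured 7.60, 7.47 and 7.42 in the ectoderm and 4.45, 4.30 and 4.43 in the vesicle, where it was detected on no array. It was at least 6.69 times higher in the ectoderm (limma adjusted p = 9.42e-07). Foxe3, the forkhead gene of the lens placode, measured 6.49, 6.05 and 6.24 in the ectoderm, was detected on no vesicle array and was at least 2.83 times higher in the ectoderm. Maf, the bZIP activator of crystallin genes, was 15.9 times higher with 9.17, 9.32 and 8.67 against 5.84, 4.51 and 4.83 (limma adjusted p = 4.02e-05 for Foxe3 and 5.90e-05 for Maf). Prox1, which drives fibre cell differentiation, was 6.09 times higher, yet well detected in the vesicle at 7.65, 7.55 and 7.18. Eya1, a placodal transcription cofactor, was 3.37 times higher (limma adjusted p = 0.00021 for Prox1 and 0.00225 for Eya1).

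Crystallin signal was present in the ectoderm at this stage. Of 24 listed crystallins and lens fibre genes 9 were below the detection filter. Of the 13 tested 8 were higher in the ectoderm and none in the vesicle, with a median log2 difference of -2.25. The probes of 11 of the 13 were detected on all 3 ectoderm arrays, and those of 3 on all 3 vesicle arrays. The detection filter thus partly sets this count and median too. Crygd measured 8.36, 8.67 and 8.43 in the ectoderm and 4.63, 4.52 and 4.59 in the vesicle, where it was detected on no array. The fold was at least 13.3 (log2 -3.91, s.e. 0.37, limma adjusted p = 7.31e-06). Its neighbours in the cluster shown above were 14.4 (Cryge), 7.79 (Crygc) and 6.81 (Crygb) times higher in the ectoderm, and Cryge was also detected on all 3 vesicle arrays at 7.43, 7.24 and 5.61. Crybb3, a beta crystallin, measured 8.67, 8.07 and 8.32 against 4.58, 4.28 and 4.98, 13.3-fold (limma adjusted p = 1.33e-06). It was detected on 1 vesicle array, and with the others raised to the lowest detected signal the fold was 11.4. Cryab, an alpha crystallin and small heat shock protein, was at least 5.10 times higher in the ectoderm (limma adjusted p = 0.000164). Cryba1 was 4.77 times higher and Cryba2 at least 2.44 times, with ectoderm array 1 far above the others for Cryba2 (7.51 against 5.68 and 4.95). The Cryba1 call was lost without vesicle array 2 (limma adjusted p = 0.0577), and that of Cryba2 without vesicle array 1, 2 or 3 (0.0999, 0.105 and 0.0848, limma) or with slide as a block (0.0657, limma); without ectoderm array 1 the Cryba2 difference was -0.90 in place of -1.63. Crygn did not pass (log2 -1.76, limma adjusted p = 0.0557), but it passed under 7 other settings (limma adjusted p = 0.0172 to 0.0476), among them slide as a block (log2 -1.91, 0.0463). The gamma crystallins are alike in sequence, so a probe may also bind a neighbour's transcript, which was not tested.

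Genes of epithelial adhesion and junctions were mostly higher in the ectoderm. Of 27 tested, 17 were higher in the ectoderm and none in the vesicle, with a median log2 difference of -2.62, and the probes used for 8 of the 17 were detected on no vesicle array. Among all 27, the probes of 15 were detected on no vesicle array and those of 23 on all 3 ectoderm arrays. Such genes could pass the detection filter through the ectoderm alone, so the filter partly sets this count and median. Cldn6, a tight junction claudin of early epithelia, measured 9.80, 9.66 and 9.75 in the ectoderm and 4.49, 4.54 and 4.40 in the vesicle, at least 31.5-fold (log2 -5.26, s.e. 0.41, limma adjusted p = 1.05e-06). Grhl2, the grainyhead factor that activates epithelial junction genes, measured 9.16, 8.58 and 8.52 against 4.23, 4.32 and 4.31 and was at least 15.9 times higher (limma adjusted p = 2.13e-06). Esrp1, the splicing regulator of epithelia, was 36.5 times higher, although vesicle array 2 carried 8.10 where vesicle arrays 1 and 3 carried 5.87 and 4.36. Its log2 difference of -5.19 was -6.19 without vesicle array 2 and -4.31 without vesicle array 3. Spint1, an inhibitor of the membrane protease matriptase, was 21.8 times higher, and St14, matriptase itself, at least 11.6 times. Epcam was 13.4 times higher, Spint2 5.93 times, and Cdh3 at least 4.72 times.

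Rab25, an epithelial Rab GTPase, was detected on no vesicle array and measured 8.48, 7.61 and 8.13 in the ectoderm, at least 9.95-fold (limma adjusted p = 1.11e-05). It is shown here because its promoter held the grainyhead motif AACCNGTT (N, any base), in capitals in a 100-base stretch upstream of the start (RefSeq, GRCm38.p6).
Rab25, chr3:88548330-88548429, minus strand: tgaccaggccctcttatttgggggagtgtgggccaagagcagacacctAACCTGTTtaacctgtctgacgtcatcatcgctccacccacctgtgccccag
Of the first-start promoters, the motif was present on either strand in 13 of 295 genes at least 2-fold higher in the ectoderm (4.41%), in 1 of 257 at least 2-fold higher in the vesicle (0.389%) and in 173 of 9615 genes tested (1.80%). Among all called genes it was present in 15 of 393 higher in the ectoderm (3.82%) and 6 of 396 higher in the vesicle (1.52%). Of the called epithelial adhesion genes, 8 had a promoter in the RefSeq set and 1 of these, Rab25, held the motif. These shares are descriptions without a test. The other motifs searched on both strands were the TATA box (TATAAA), the MAF site (TGCTGA), the SOX core (ACAAT), the homeodomain core (TAATTA) and the AP-2 site (GCCNNNGGC). In that order they were present in 11.9%, 17.3%, 20.3%, 3.05% and 26.4% of the 295 ectoderm promoters, in 12.5%, 19.1%, 18.7%, 3.11% and 26.5% of the 257 vesicle promoters, and in 7.63%, 14.8%, 20.9%, 2.67% and 25.1% of all 9615. TGCTGC and TATATA were present in 26.1% and 4.07% of the ectoderm set, and in 23.0% and 2.33% of the vesicle set.

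Keratins and ectodermal transcription factors went with the junction genes. Of 5 keratins tested, 3 were higher in the ectoderm: Krt8 at least 16 times, its partner Krt18 8.27 times and Krt7 5.16 times (limma adjusted p = 8.55e-06, 2.00e-07 and 0.000535). Of 13 regulators of surface ectoderm and epidermis 7 were higher in the ectoderm and none in the vesicle, with a median log2 difference of -1.57. The AP-2 factors tested, Tfap2a, Tfap2b and Tfap2c, were among them. Tfap2a measured 9.55, 9.32 and 9.09 in the ectoderm and 4.26, 4.38 and 4.51 in the vesicle, at least 23.6-fold by the probe used, although another probe was detected on 1 vesicle array. Tfap2b was at least 18.1 times higher, and Tfap2c was 43.0 times higher (limma adjusted p = 3.36e-07, 3.40e-07 and 6.93e-06 in that order). Dlx3 and Dlx5, distal-less homeobox genes of the ectoderm, were 11.1 and 12.3 times higher. Trp63, the master regulator of stratified epidermis, was dimmer, at 6.26, 5.36 and 6.39, and at least 2.37 times higher in the ectoderm (limma adjusted p = 0.0122). Its call was lost without vesicle array 2 (limma adjusted p = 0.0635) or ectoderm array 3 (0.0522).

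The largest ectoderm difference was Spon2, a secreted matrix protein, at 10.87, 10.80 and 10.74 in the ectoderm against 4.36, 4.88 and 5.08 in the vesicle, 65.4-fold (log2 -6.03, s.e. 0.60, limma adjusted p = 1.17e-05). Tnc, the matrix glycoprotein tenascin C, was 37.7 times higher, and Dmrta2, a DM-domain transcription factor, 23.8 times with 7.27, 6.55 and 6.88 in the vesicle. Elovl3, a fatty acid elongase, and Anxa1, a phospholipid-binding annexin, were detected on no vesicle array and were at least 24.3 and 18.2 times higher. Cxcl12, a chemokine, was 25.3 times higher, and Foxc1, a forkhead gene of periocular mesenchyme, at least 13.4 times. Of these genes Cxcl12 and Foxc1, with Pdgfra below, are also known from mesenchyme, whose summed signal was higher in the ectoderm as given above. Of the 7 tested mesenchyme markers Foxc1 alone passed. Alx4 had a log2 difference of -1.53 (limma adjusted p = 0.0548) and was detected on 3 ectoderm arrays and 1 vesicle array. Col3a1, Prrx1, Foxc2, Twist1 and Col1a2 had log2 differences of -0.69, -0.36, -0.28, -0.17 and 0.26 (limma adjusted p = 0.488, 0.638, 0.798, 0.832 and 0.844). The part of mesenchyme in these results was not tested.

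Matrix and adhesion genes leaned towards the ectoderm, with 8 of 25 members of the basement membrane and integrin list higher there and 1 in the vesicle, at a median log2 difference of -0.64. Fn1, fibronectin, measured 10.81, 10.79 and 10.75 in the ectoderm and 8.12, 8.08 and 8.22 in the vesicle, 6.25-fold (limma adjusted p = 6.27e-08). Itga3, a laminin receptor subunit, was 21.9 times higher, Itgb5 5.73 times, and the basement membrane proteins Hspg2, Lamb1, Lama1 and Agrn 5.31, 4.83, 2.87 and 1.55 times. Guidance genes pointed the same way, with 6 of 26 semaphorins, netrins, slits, teneurins and their receptors higher in the ectoderm and none in the vesicle. They included Slit3 at 7.38 times, Tenm2 at 6.65, Sema6d at 4.29, Robo1 at 2.66 and Sema3a at 2.46. Of 15 ephrins and Eph receptors 2 were higher in the vesicle and 3 in the ectoderm: the receptor Epha5 was 9.54 times higher in the vesicle, and its ligand Efna5 2.01 times higher in the ectoderm (limma adjusted p = 2.29e-05 and 0.00115).

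Ligands and receptors of the same pathway were at times brighter in opposite tissues. Of 10 FGF ligands and receptors, Fgf15 and Fgf13 were higher in the vesicle and the receptor Fgfr2 in the ectoderm. Fgfr2 measured 11.27, 11.43 and 11.13 in the ectoderm and 9.57, 9.78 and 9.50 in the vesicle, 3.16-fold (limma adjusted p = 5.37e-07), and Fgf13 was 3.97 times higher in the vesicle. Genes that respond to FGF and ERK signalling were split, 5 of 13 higher in the ectoderm and 3 in the vesicle. Egr1, an immediate early gene, was 9.19 times higher in the ectoderm, Dusp4 and Dusp6, phosphatases that dampen ERK, 5.53 and 1.88 times, and Etv1, an ETS factor, 4.27 times. Dusp5 and Myc were 3.56 and 4.30 times higher in the vesicle. For these 6 response genes limma adjusted p-values ran from 0.000357 (Egr1) to 0.00655 (Myc).

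In the PDGF and IGF axis 5 of 12 members were higher in the ectoderm and 1 in the vesicle. Pdgfra, a PDGF receptor, measured 10.21, 10.22 and 10.26 in the ectoderm and 5.27, 4.40 and 4.94 in the vesicle, 41.2-fold (limma adjusted p = 7.94e-08). Its ligands Pdgfa and Pdgfc were 5.04 and 3.86 times higher in the ectoderm as well. Igfbp5 was 7.15 times and Igf2 2.26 times higher in the ectoderm, while Igfbp4 was 2.39 times higher in the vesicle. In the retinoic acid pathway 3 of 13 were higher in the vesicle and 2 in the ectoderm: Cyp1b1, a cytochrome that can make retinoic acid, was 3.57 times higher in the vesicle, and Stra6, the retinol transporter, 4.79 times higher in the ectoderm (limma adjusted p = 0.00012 and 0.000543).

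Of 17 BMP ligands, antagonists, receptors and transducers, Bmp4 and Fst were higher in the vesicle and none in the ectoderm. The share called, 11.8%, was near the 8.38% of all genes tested. Fst, a follistatin that binds activins and BMPs, was 5.34 times higher (limma adjusted p = 0.00475). Of 9 BMP targets, Tbx3 and Id2 were higher in the vesicle. Id1 and Id3, helix-loop-helix inhibitors that BMP signalling induces, had log2 differences of 0.04 and -0.04 (limma adjusted p = 0.978 and 0.964). Id2 was 1.51 times higher (limma adjusted p = 0.0218), a call lost without vesicle array 1, 2 or 3 (0.0958, 0.0574 and 0.0587) or ectoderm array 3 (0.0908), each by limma. Of 27 Wnt ligands, receptors and secreted modulators 4 were higher in the vesicle and 2 in the ectoderm; Wnt7b was 2.96 times higher in the vesicle (limma adjusted p = 0.000123). Of 13 Notch genes 2 were higher in the vesicle, among them Dlk1 at 2.90 times, and 1 in the ectoderm. Of 16 sterol synthesis genes none was called, and 16 of 19 Hox genes with a probe were below the detection filter.

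In the embryos labelled Bmp4 KO the targeted gene measured 4.27, 5.18 and 4.31 on the vesicle arrays and 5.66, 4.56 and 4.53 on the ectoderm arrays, with every mutant vesicle array below every wild-type one. The same tissues of these embryos gave the tissue difference on arrays that the wild-type comparison did not use, although both came from the same 2 slides and 1 fit. There 905 genes (7.59%) were called, 411 (3.45%) higher in the vesicle and 494 (4.14%) in the ectoderm. Of the 483 wild-type vesicle genes, 415 had the same sign in the mutants and 127 were called in the same direction; of the 516 ectoderm genes, 421 and 206. Over all genes 61% had the same sign. The difference between the 2 tissue differences was called for 168 genes (1.41%), or 1555 at an unadjusted p below 0.05. Among the called ectoderm genes 83 were of that kind, 78 of them with the wild-type difference lying further towards the ectoderm than the mutant one. Among the vesicle genes there were 32, with 31 further towards the vesicle in the wild type. Genes with the opposite sign in the mutants, such as Cyp1b1, are counted here too. The choice of these genes on the same wild-type arrays favours that direction. The 168 genes became 89 with the replicate block, and between 94 (without vesicle array 2) and 163 without 1 array. Among these were 109 without vesicle array 1 and 107 without vesicle array 3.

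Of the 17 called epithelial adhesion genes 16 were called in the same direction in the mutants, and for 1, Cdh1, the tissue difference was called as differing between genotypes (log2 -4.43 in the wild type, -2.88 in the mutants, limma adjusted p = 0.0189). Cldn6 measured 10.83, 10.12 and 10.46 in mutant ectoderm and 6.66, 4.67 and 5.19 in mutant vesicle, a log2 difference of -4.96 against -5.26 in the wild type. Of the 8 called crystallins none was called in the mutants, and for 6 the difference between genotypes was called. Crygd measured 4.56, 4.33 and 5.43 in mutant ectoderm and 4.45, 5.41 and 4.99 in mutant vesicle, so that the groups overlapped. Crybb3 and Pitx3 lay between 4.34 and 4.58 on every mutant array. Of the 8 called lens placode regulators 2 were called in the mutants and 5 had a called difference between genotypes, among them Foxe3, Prox1 and Pitx3 (limma adjusted p = 0.0049, 0.00178 and 0.000319).

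**Figure D4:**
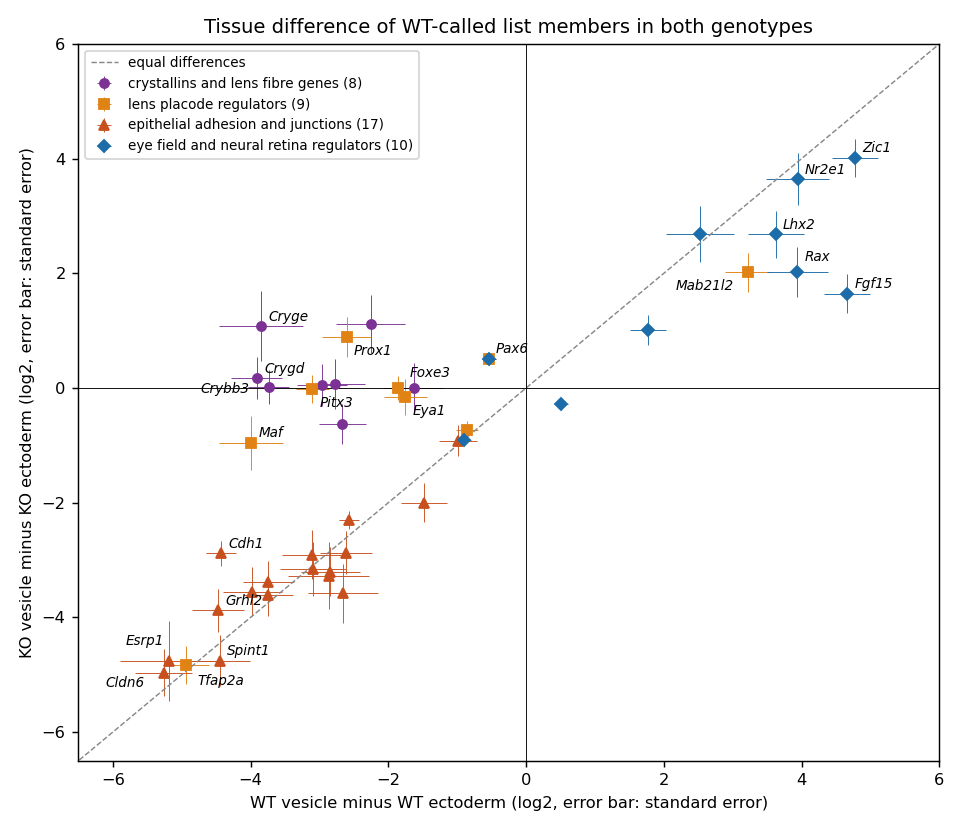
Tissue difference (vesicle minus ectoderm, log2, error bars 1 standard error) in the wild type (x axis) and in the Bmp4 KO embryos (y axis) for list members called in the wild type, with a dashed line of equal differences. Epithelial genes such as Cldn6 (-5.26, -4.96) follow the line. Crybb3 (-3.74, 0.01), whose probe was detected on no mutant array, lies near 0 on the y axis, while Cryge and Cryba1 lie at 1.08 and 1.11.

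On the vesicle side 7 of the 8 called eye field genes were called in the mutants too. Zic1 and Nr2e1 had log2 differences of 4.01 and 3.64 in the mutants against 4.78 and 3.94 in the wild type, with no called difference between genotypes (limma adjusted p = 0.55 and 0.905). Fgf15 measured 6.10, 6.36 and 6.77 in mutant vesicle and 4.86, 4.67 and 4.76 in mutant ectoderm, a log2 difference of 1.65 against 4.67 (limma adjusted p of the difference = 0.00443). For Tbx3 and Bmp4 the differences were 0.36 and -0.33 in the mutants against 3.27 and 2.24. Aldh1a1 and Cyp1b1 had the opposite sign in the mutants, with log2 differences of -1.76 and -3.59 against 2.94 and 1.84. The summed mesenchymal intensity was 3549 to 3633 on the mutant ectoderm arrays against 770 to 880 in wild-type ectoderm, and without Foxc1 3060 to 3210 against 406 to 534. The summed endothelial intensity was 723 to 781 in mutant against 222 to 318 in wild-type ectoderm, and 402 to 454 against 309 to 335 in the vesicle. In the vesicle the summed erythroid intensity was 4785 to 5090 in mutants against 2042 to 2150, and the summed pigment epithelium intensity 14750 to 15200 against 6975 to 7912. In the ectoderm the pigment epithelium sum was 11640 to 12530 in mutants against 10270 to 10810. That sum includes genes bright in both wild-type tissues, such as Mitf, and Dct and Pmel made up a small part of it in wild-type vesicle. It is therefore not a measure of pigment cells alone. The part of these cell types in the differences between genotypes was not tested.

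**Figure D5:**
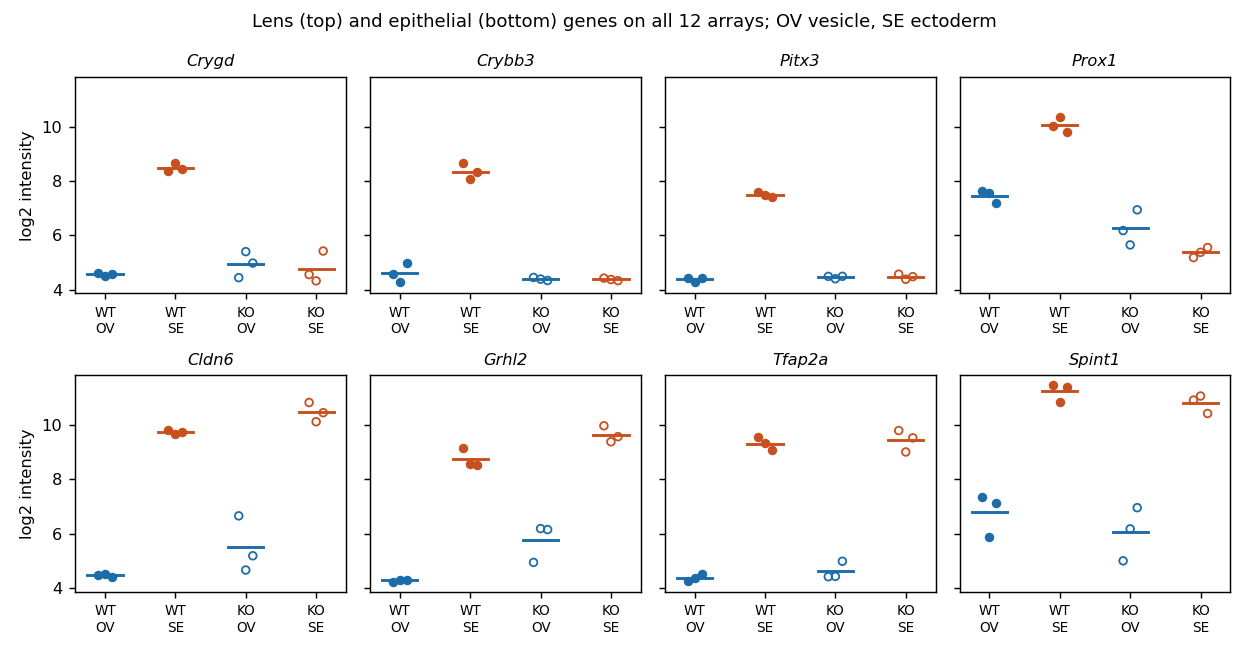
Normalised log2 intensity (y axis) of 8 genes on all 12 arrays by group (x axis; OV, vesicle; SE, ectoderm; filled, WT; open, KO), with a bar at each mean. In the top row Crygd, Crybb3 and Pitx3 are high in wild-type ectoderm alone; in the bottom row Cldn6, Grhl2, Tfap2a and Spint1 are high in the ectoderm of both genotypes.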

How the data were processed

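Wild-type distal optic vesicle and surface ectoderm were measured on 3 Illumina arrays each, within a study of 12. Probe intensities, numbers of beads and detection p-values were deposited by the authors as exported from GenomeStudio, per the submitters' processing notes, with no background correction or normalisation there; the version is not stated. The authors' deposited matrix of processed intensities served only as an alternative. Depth on arrays is limited by their number, 3 per group.

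From the deposited values, background correction, quantile normalisation and log2 were done with neqc (offset 16) in limma 3.58.1, with data.table (version 1.17.8) and R 4.3.3. Of 45281 probes, 34885 had 1 gene symbol, 18 several and 10378 none in the platform annotation, and 34807 were matched to RefSeq. Probes with a detection p-value below 0.05 on at least 3 of 12 arrays were kept (24978, of which 20531 were named), and each of 11924 genes was represented by its brightest probe. Of the genes called in the wild type, 482 had over 1 kept probe. With kept probes tested singly, another probe passed in the same direction for 174 of these and in the opposite direction for 1. For 307 no other probe passed, so those calls rest on 1 probe. All 12 arrays were fitted as 4 group means with lmFit and eBayes with a variance trend, and p-values were Benjamini-Hochberg adjusted over all genes. The procedure was tested on simulated data with independent noise on each array, which cannot test effects of slide, pooled RNA or shared embryos.

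Deviations from group means of same-numbered wild-type vesicle and ectoderm arrays correlated at 0.0227, 0.015 and 0.000928. With so few arrays per group, these values cannot decide whether same-numbered arrays came from the same embryos. The members and gene lists were chosen with earlier results of these data known. Named genes were the 15 largest non-overlapping changes in each direction, listed members (the first 4 measured and up to 6 more by p-value), the cell type markers and the 8 genes with the lowest adjusted p for the difference between genotypes; the text gives a selection of these. Sox2 lies outside that rule.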

Additional observations from a re-analysis of the deposited data

Results flagged for a closer look

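The tissue difference (vesicle minus ectoderm, log2) was compared between wild type and mutants by a tissue by genotype term in limma, and 46 of the genes named here passed at an adjusted p below 0.05. The value beside each gene is the wild-type difference minus the mutant one, so a negative value means a difference lying further towards the ectoderm in the wild type. Crystallins with such a difference were Cryge (-4.93), Crygd (-4.08), Crybb3 (-3.75), Cryba1 (-3.37), Crygc (-3.01) and Crygb (-2.83). Lens placode genes with such a difference were Prox1 (-3.49), Pitx3 (-3.09), Maf (-3.04), Foxe3 (-1.86) and Pax6 (-1.05). Epithelial, keratin and epidermal genes with such a difference were Cdh1 (-1.54), Krt18 (-1.53), Krt7 (2.60), Trp63 (2.55) and Wnt6 (3.70). Vesicle patterning and retinoid genes with such a difference were Cyp1b1 (5.42), Aldh1a1 (4.70), Fgf15 (3.02), Tbx3 (2.91), Bmp4 (2.57), Foxd1 (1.98) and Stra6 (-2.49). Growth factor and response genes with such a difference were Fgfr2 (-1.06), Etv1 (-2.74), Egr1 (-2.97), Igfbp4 (2.01), Igfbp5 (-1), Pdgfra (-3.31) and Dlk1 (1.73). Matrix, adhesion and guidance genes with such a difference were Spon2 (-5.10), Has2 (-3.84), Tnc (-2.99), Lamb1 (-2.27), Tenm2 (-1.40), Sema3a (1.54), Cdh11 (3.64), Cdh2 (-3.54), Pcdh17 (3.27) and Gja1 (-0.72). Pigment, globin and other genes with such a difference were Pmel (-2.55), Hbb-y (-1.08), Hbb-bh1 (-1.05), Dapl1 (4.11), Slc38a8 (2.82) and Adam23 (1.92). The lowest adjusted p was that of Cyp1b1 (1.1e-06), whose tissue difference was 1.84 in the wild type and -3.59 in the mutants. Trp63, Krt7 and Wnt6 lay further towards the ectoderm in the mutants, with tissue differences of -4.14, -4.97 and -4.00 there against -1.59, -2.37 and -0.29. Cdh2, the neural cadherin, differed by -0.55 in the wild type and 2.99 in the mutants. Has2, a hyaluronan synthase, was 8.35 times higher in the ectoderm of the wild type (limma adjusted p = 6.95e-06), with a difference of 0.78 in the mutants. The sizes are limited by the detection floor for 11 of these genes, whose probe was detected on no array of at least 1 of the 4 groups: Pitx3, Foxe3, Crygb, Crygc, Crygd, Crybb3, Trp63, Wnt6, Tbx3, Tnc and Pmel.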

How the results depend on the processing

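Other background corrections, normalisations, probe summaries and models gave 758 to 1146 calls in place of 999, and none of the named genes that were called changed sign under them. Median centring in place of quantile normalisation moved the share of calls higher in the vesicle from 48.3% to 53.7%. With a minimum of 2-fold, 319 vesicle genes remained of 483. Within slide 1 there were 76 calls (20 in the vesicle, 56 in the ectoderm), 39 wild-type calls shared with the mutants and 0 differences between genotypes; within slide 2 there were 415 (156 and 259), 163 and 7. These have 6 arrays each over 4 groups. Leaving out 1 array gave 612 to 835 calls, 255 to 398 in the vesicle and 357 to 458 in the ectoderm, 279 to 345 calls shared with the mutants in place of 333, and 94 to 163 differences between genotypes in place of 168. Without the detection filter, still with 1 probe per gene, there were 111 such differences. With every kept probe tested singly, 171 genes had a probe that passed. With the replicate block there were 805 tissue calls (363 and 442), 297 shared and 89 differences between genotypes, and no named gene lost its call. Detection limits the dim genes: folds of genes not detected in a tissue are bounds. Without background correction the log2 difference fell in size from 3.94 to 2.38 for Rax, 3.63 to 2.00 for Lhx2, -1.57 to -0.58 for Isl1 and 1.27 to 0.45 for Insm1, and with an offset of 50 the values were 3.01, 2.62, -0.88 and 0.64, all still called. Of the 120 named called genes, 79 moved by over 1.5-fold without background correction, 63 with that offset and 31 with the mean of a gene's probes. Calls lost without background correction were those of Vax1 (limma adjusted p = 0.0707), Cryba2 (0.0737) and Trp63 (0.0504). With an offset of 50 they were Vax1 (0.0552) and Cryba2 (0.078), and without the detection filter Vax1 (0.069) and Cryba2 (0.0629). With the mean of a gene's probes they were Meis2 (0.0643), Pmel (0.0727), Trp63 (0.0677), Id2 (0.173) and Rrm2 (0.0676). Without a variance trend they were Pax6 (0.0675), Cryba2 (0.0767), Id2 (0.0824) and Agrn (0.0537). Cryba2 was also lost with the 6 wild-type arrays alone (0.114), in the authors' matrix (0.141) and with slide as a block (0.0657). The causes of these changes were not tested.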
